A study of Homo sapiens with 19 samples.

Results

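Serine synthesis and folate one-carbon enzymes were followed through the whole set of libraries as a group of 9 genes: PHGDH, PSAT1, PSPH, SHMT1, SHMT2, MTHFD1, MTHFD2, MTHFD1L and ALDH1L2. Their rows were taken by name, as those whose Ensembl gene ID belongs to 1 of these symbols. The names were chosen with earlier results of these data known. All 9 had a row in each of the 3 gene tables, which list 60612 IDs for HCT116, 63086 for WiDr and 82890 for the WiDr long reads. HCT116 and WiDr are human colorectal carcinoma cell lines, each an established line grown in culture. HCT116 cells received GSK025, GSK715 or the solvent DMSO, with 3 libraries each. GSK025 (GSK3235025) inhibits the arginine methyltransferase PRMT5 and was given at 10 µM. GSK715 (GSK3368715) inhibits the type I arginine methyltransferases, PRMT1 among them, and was given at 5 µM. WiDr cells received GSK715 at 5 µM or DMSO, with 3 short-read libraries each, and the same pair of treatments was read as full-length cDNA on an Oxford Nanopore (ONT) sequencer, with 2 libraries each. Every treatment lasted 96 h. The labels state no genetic change in either line. They do not say whether replicates came from separate cultures, and the spread behind each p-value may therefore be technical.

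The first 3 enzymes make serine from an intermediate of glycolysis: PHGDH oxidises it, PSAT1 adds the amino group and PSPH removes the phosphate. The serine hydroxymethyltransferases SHMT2, in mitochondria, and SHMT1, in the cytosol, then split serine into glycine and a one-carbon unit bound to tetrahydrofolate. In mitochondria MTHFD2 oxidises that unit and MTHFD1L releases it as formate, which the cytosolic enzyme MTHFD1 takes up for the synthesis of purines and thymidylate, while mitochondrial ALDH1L2 can burn it to CO2 with formation of NADPH. Growing tumour cells, those of the colon included, are known to draw on this route for nucleotides, and the transcription factor ATF4 is known to activate many of its genes when amino acids run short.

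Because ATF4 acts together with C/EBP proteins on a composite DNA element, the promoter windows of the members were searched for its letters, TGATGNAA, on both strands. A window ran from 250 bases before to 50 after a RefSeq gene start (GRCh38.p14), and 6 of the 9 genes had an entry: PHGDH, PSAT1, SHMT1, MTHFD1, MTHFD2 and MTHFD1L. The letters occurred in the windows of MTHFD1L alone among these 6 genes, against 4.46% of all 27305 genes with a window. They lay in 3 of its 4 windows, which share 1 genomic place, and 3.62% of all 35116 windows had them. The E-box CACGTG, searched in the same way, was in the MTHFD1 window and in the same 3 MTHFD1L windows. It was in 7.26% of all windows and in 8.775% of all genes with a window. Its letters do not overlap the composite element of MTHFD1L. The sequences below show the MTHFD1L site with the matched letters in capitals, on the plus strand at chr6:150866346-150866375, and the upstream stretches of PSAT1 (plus strand, chr9:78296875-78297124) and MTHFD2 (plus strand, chr2:74198365-74198561). Those 2 genes are shown because they changed most strongly between the lines among members with a window, and their windows hold neither motif, so that they are in lower case throughout. A match is a description of letters and not of a bound site.
MTHFD1L site: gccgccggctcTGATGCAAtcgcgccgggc
PSAT1 upstream: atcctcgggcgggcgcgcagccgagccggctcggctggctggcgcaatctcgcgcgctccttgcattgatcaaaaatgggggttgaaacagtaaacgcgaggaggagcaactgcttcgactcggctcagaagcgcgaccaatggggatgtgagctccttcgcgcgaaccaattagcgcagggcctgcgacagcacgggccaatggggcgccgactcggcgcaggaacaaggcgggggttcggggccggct
MTHFD2 upstream: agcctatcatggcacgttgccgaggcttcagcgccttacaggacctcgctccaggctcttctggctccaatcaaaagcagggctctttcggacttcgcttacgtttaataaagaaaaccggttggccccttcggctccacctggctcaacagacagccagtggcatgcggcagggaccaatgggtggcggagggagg
G and C made up 66.0% of the PSAT1 window and 62.7% of the MTHFD2 window, against a median of 58.7% over all windows. The 3 MTHFD1L windows with the site had 75.7% to 76.7%, and its window without the site had 40.7%.

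Library totals (in M, 1e6 counts) were 64.6 to 66.9 M in HCT116, 59.6 to 82.4 M in the WiDr short reads and 1.45 to 1.67 M in the ONT libraries. In CPM, the counts of a gene in 1e6 counts of its library after TMM scaling, the 5 epithelial markers (EPCAM, CDH1 and keratins) summed to 4433 to 7920 over the HCT116 libraries and 14489 to 22536 over those of WiDr, both read types included. Of 5 intestinal markers, HCT116 had CDX2 only above a mean of 1 CPM, while the WiDr short reads had VIL1 and CDH17 and, after GSK715, CDX2 and GPA33 as well. The ONT libraries had VIL1, CDH17 and CDX1 in both groups and GPA33 with GSK715. Immune markers summed to at most 0.809 CPM in HCT116, in the WiDr short reads to 3008 to 3148 with GSK715 against 1199 to 1230 with DMSO, and in ONT to 7079 to 7875 with GSK715 against 5454 to 5568 with DMSO. Nearly all of it in WiDr was LYZ, while CD3E and PTPRC stayed at or near 0. Fibroblast markers, mainly COL1A1, summed to at most 27.6 and endothelial markers to at most 3.40 CPM in any library. Mitochondrially encoded transcripts took 5.13% to 5.48% of counts with GSK025, 5.09% to 5.42% with GSK715 and 8.64% to 9.09% with DMSO in HCT116, 8.30% to 8.83% with GSK715 against 6.07% to 6.49% with DMSO in the WiDr short reads, and 2.31% to 2.44% with GSK715 against 1.96% to 1.97% with DMSO in ONT. With these genes left out of the fits, the numbers of enzymes called higher and lower were the same in all 7 comparisons.

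Scaling by library totals in place of TMM moved the median of all genes by -0.16 on the log2 scale for GSK715 in HCT116, 0.12 for GSK715 in WiDr, 0.36 between the lines and -0.21 between the read types, and all changes here are on the TMM scale. The share of calls that were higher was 32.1% with library totals and 47.7% with TMM for GSK715 in HCT116, 39.1% and 49.2% for GSK715 over GSK025, 37.4% and 48.7% in ONT, 69.6% and 49.7% between the lines, and 36.9% and 56.3% between the read types. Longer genes tended to have lower log2 fold changes in HCT116, with a Spearman rho across 11184 genes of at least 5 CPM of -0.30 for GSK025 and -0.29 for GSK715, against -0.06 across 11025 genes in WiDr; genes are not independent replicates, and the part of length in the results was not tested.

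Levels are TMM-scaled CPM, and changes are log2 fold changes with a standard error (SE). A gene is called where the Benjamini-Hochberg adjusted p of edgeR's quasi-likelihood test, taken over all genes tested, is under 0.05. Statements that the libraries of groups did or did not overlap describe single genes. The share of all genes whose groups were apart was not counted, so such separation does not mark the enzymes out. To order genes by level, CPM was divided by the length of all annotated exons in kilobases. In HCT116 the mitochondrial enzyme MTHFD2 was first or second on this scale in each group, and mitochondrial ALDH1L2 was last. With GSK025 the order was SHMT2 (72.1 ± 3.2 CPM per kilobase, SD, n = 3), MTHFD2 (63.4 ± 2.7) and PSAT1 (41.2 ± 1.4), then MTHFD1, MTHFD1L and PHGDH between 18.6 and 19.2, whose libraries overlapped, and at the low end PSPH (8.47), SHMT1 (6.63) and ALDH1L2 (0.107). With GSK715 it was MTHFD2 (93.3 ± 1.3), PSAT1 (85.3 ± 5.0) and SHMT2 (82.8 ± 2.9), the last 2 overlapping, then PHGDH (27.1) and MTHFD1L (25.5), which also overlapped, MTHFD1 (13.1), PSPH (6.92), SHMT1 (3.76) and ALDH1L2 (0.150). With DMSO no neighbours overlapped in the order MTHFD2 (61.2 ± 0.4), SHMT2 (46.9 ± 2.3), PSAT1 (37.6 ± 1.1), MTHFD1L (16.0), MTHFD1 (14.5), PHGDH (12.6), PSPH (6.999), SHMT1 (4.39) and ALDH1L2 (0.409). Some places depend on the gene model. Per kilobase of the longest transcript PHGDH stood 3rd with GSK025 (53.8) and 4th with GSK715 (78.4) and DMSO (36.6). On that scale SHMT1 lay above PSPH in all 3 groups (17.5 and 10.7 with GSK025, 9.94 and 8.78 with GSK715, 11.6 and 8.88 with DMSO), and SHMT2 (117) above MTHFD2 (102) with GSK715.

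WiDr had another order, headed by PSAT1. With GSK715 it ran PSAT1 (102.7 ± 1.9 CPM per kilobase), MTHFD2 (66.6 ± 1.0) and SHMT2 (59.3 ± 0.4), then PHGDH, MTHFD1L and PSPH between 10.8 and 11.0 with overlapping libraries, MTHFD1 (5.59), SHMT1 (3.95) and ALDH1L2 (0.0240). With DMSO it ran PSAT1 (346.1 ± 6.2), MTHFD2 (184 ± 2.7), SHMT2 (94.8 ± 3.0), PSPH (59.5 ± 0.5), MTHFD1L (26.9), PHGDH (15.9), MTHFD1 (7.23), SHMT1 (3.11) and ALDH1L2 (0.0284), with no overlap between neighbours. Per kilobase of the longest transcript SHMT2 (84.0) lay above MTHFD2 (72.8) and SHMT1 (10.4) above MTHFD1 (7.69) with GSK715, and PHGDH (46.0) above MTHFD1L (37.5) with DMSO, while PSAT1 stayed first in both groups. The tables of the lines were normalized separately, so these orders hold within a line. MTHFD2 shares 33.2% of its exonic bases with other genes, the largest part with SLC4A5 on the opposite strand. MTHFD1 shares 11.0% and SHMT2 9.51%, the largest part of each with an antisense gene. The strand of the libraries is not stated, so reads of these pairs could not be told apart. GENCODE also names pseudogenes of some members (7 of MTHFD2, 4 of PSAT1, 1 each of PSPH, SHMT1 and MTHFD1), which may share reads with them.

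**Figure D1:**
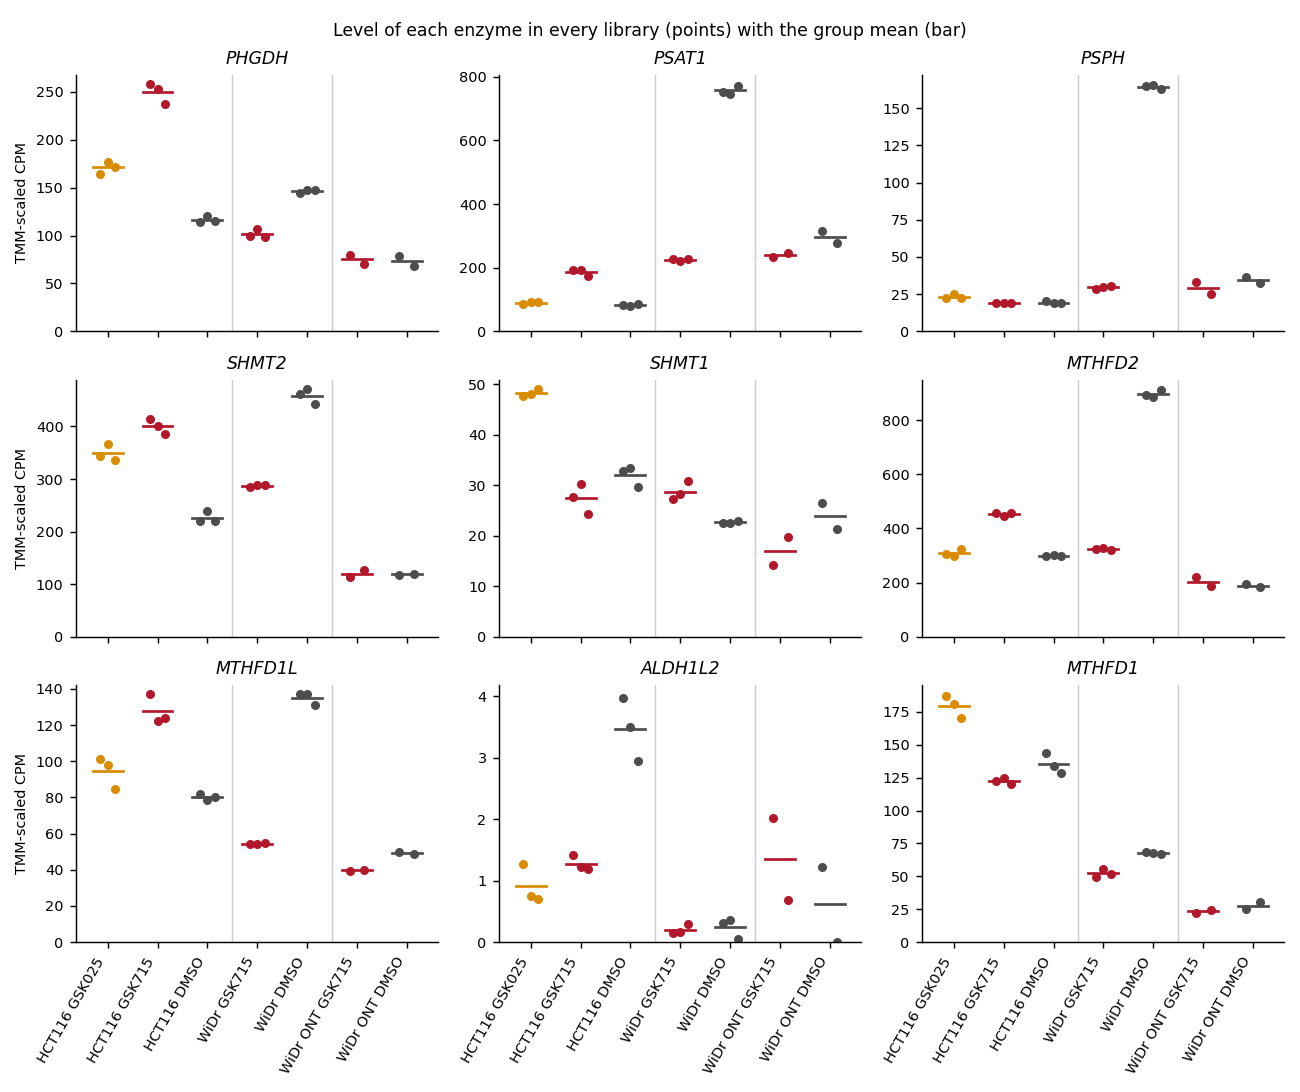
Level of each of the 9 enzymes in every library (points, TMM-scaled CPM on linear axes from 0) with the group mean (bar), by line, read type and treatment. PSAT1 had 220.1 to 228 CPM with GSK715 against 746 to 772 with DMSO in the WiDr short reads, and 174 to 194 with GSK715 against 80.0 to 84.6 with DMSO in HCT116.

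In HCT116 with GSK715, the first enzymes of serine synthesis and most of the mitochondrial arm of the folate route rose. PHGDH, PSAT1, SHMT2, MTHFD2 and MTHFD1L rose, by 1.52-fold to 2.27-fold, while ALDH1L2, SHMT1 and MTHFD1 fell and PSPH did not pass the test. Thus 5 of 9 were called higher, where 22.1% of the 19751 genes tested were, and 3 of 9 lower, where 24.2% were, which is near the background (46.4% were called in either direction). The median log2 fold change was 0.61 over the 9 and -0.05 over all genes tested.

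PHGDH (ENSG00000092621, chr1:119648411-119744226, plus strand) had 259, 253 and 237 CPM with GSK715 against 114, 120.1 and 115 with DMSO. All treated libraries lay above all control libraries, and the gene rose by a log2 fold change of 1.10 (SE 0.046, adjusted p = 1.68e-09). PSAT1 (ENSG00000135069, chr9:78297143-78330093, plus strand) had 194, 191 and 174 CPM with GSK715 against 82.1, 80.0 and 84.6 with DMSO. Its groups were likewise apart, and its rise was the largest of the 9, with a log2 fold change of 1.18 (SE 0.051, adjusted p = 2.08e-09). PSPH (ENSG00000146733, chr7:56011051-56051604, minus strand), the last enzyme of the same chain, had 19.0, 19.2 and 19.2 CPM with GSK715 against 20.1, 18.9 and 19.0 with DMSO. These groups overlapped, the log2 fold change was -0.02 (SE 0.075, adjusted p = 0.885), and its sign turned with another scaling (0.01 with RLE size factors).

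SHMT2 (ENSG00000182199, chr12:57229327-57234935, plus strand) had 414, 402 and 386 CPM with GSK715 against 220.3, 239.5 and 220.5 with DMSO. It rose by a log2 fold change of 0.82 (SE 0.047, adjusted p = 2.23e-08), with no overlap. MTHFD2 (ENSG00000065911, chr2:74198562-74217565, plus strand) had 458, 447 and 458 CPM with GSK715 against 297, 301 and 298 with DMSO, and its log2 fold change was 0.61 (SE 0.037, adjusted p = 4.17e-08). MTHFD1L (ENSG00000120254, chr6:150865549-151101887, plus strand) had 137, 122 and 124 CPM with GSK715 against 81.9, 78.4 and 80.4 with DMSO, and its log2 fold change was 0.67 (SE 0.067, adjusted p = 2.60e-06). The groups of both MTHFD genes were apart as well. ALDH1L2 (ENSG00000136010, chr12:105019784-105084577, minus strand) moved the other way, with 1.42, 1.23 and 1.19 CPM under GSK715 against 3.98, 3.50 and 2.95 under DMSO, or 74 to 88 counts against 202 to 275. It fell by 1.44 on the log2 scale (SE 0.28, adjusted p = 0.000928). In bulk libraries, less transcript per cell and fewer cells with the transcript cannot be told apart.

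The cytosolic pair changed little. SHMT1 (ENSG00000176974, chr17:18327860-18363563, minus strand) had 27.7, 30.2 and 24.4 CPM with GSK715 against 32.8, 33.5 and 29.6 with DMSO, so that the highest treated library exceeded the lowest control. MTHFD1 (ENSG00000100714, chr14:64388031-64463457, plus strand) had 123, 125 and 120.4 CPM with GSK715 against 144, 134 and 129 with DMSO, with no overlap. Both calls were narrow: the log2 fold changes were -0.22 (SE 0.079, adjusted p = 0.0350) for SHMT1 and -0.15 (SE 0.050, adjusted p = 0.0295) for MTHFD1. Both were lost with RLE size factors (adjusted p = 0.0513 and 0.0622), without DMSO replicate 1 (0.108 and 0.162) or DMSO replicate 2 (0.128 and 0.0566), and without GSK715 replicate 1 (0.0686 and 0.0663) or GSK715 replicate 3 (0.159 and 0.0922), and MTHFD1 also without GSK715 replicate 2 (0.0546). Where both were lost, ALDH1L2 was the 1 enzyme of the 9 still called lower.

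With GSK025 in HCT116, members of both arms of the route rose, by less than with GSK715 for PHGDH, SHMT2 and MTHFD1L. PHGDH, PSPH, SHMT1, SHMT2, MTHFD1 and MTHFD1L rose, by 1.18-fold to 1.54-fold, ALDH1L2 fell, and PSAT1 and MTHFD2 did not pass. That is 6 of 9 called higher, where 22.0% of genes tested were, and 1 of 9 lower, where 22.1% were (44.1% in either direction), with a median log2 fold change of 0.28 against -0.02 over all genes tested. This comparison and the one of GSK715 use the same 3 DMSO libraries, whose values are given above.

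SHMT2 had 345, 366 and 336 CPM with GSK025 against the 220.3 to 239.5 of DMSO, and rose by a log2 fold change of 0.62 (SE 0.047, adjusted p = 2.97e-07). SHMT1 had 47.7, 48.0 and 49.1 CPM against 29.6 to 33.5, and its log2 fold change was 0.60 (SE 0.079, adjusted p = 3.76e-05). PHGDH had 165, 177 and 172 CPM against 114 to 120.1, with a log2 fold change of 0.56 (SE 0.046, adjusted p = 6.05e-07). In all 3 genes every GSK025 library exceeded every DMSO library. MTHFD1 had 187, 181 and 171 CPM against 129 to 144 (log2 fold change 0.41, SE 0.050, adjusted p = 1.95e-05). PSPH had 22.6, 25.0 and 22.6 CPM against 18.9 to 20.1 (0.28, SE 0.075, adjusted p = 0.00889), and MTHFD1L 101.4, 98.2 and 84.6 CPM against 78.4 to 81.9 (0.24, SE 0.067, adjusted p = 0.0101), a call that was lost without GSK025 replicate 1 (adjusted p = 0.0593). These 3 genes were also above DMSO in every library, though by less.

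PSAT1 had 86.5, 91.8 and 91.8 CPM with GSK025 against 80.0 to 84.6 with DMSO. The libraries did not overlap, but the log2 fold change of 0.13 (SE 0.050, adjusted p = 0.0518) lay at the threshold, which it passed with RLE size factors (0.0316), DESeq2 (0.0167), the 6 compared libraries alone (0.0415) or GSK025 replicate 1 left out (0.0431). MTHFD2 had 306, 297 and 323 CPM against 297 to 301, and its overlapping groups gave a log2 fold change of 0.05 (SE 0.037, adjusted p = 0.320), which library totals turned to -0.02. ALDH1L2 had 1.27, 0.753 and 0.704 CPM against 2.95 to 3.98, or 46 to 85 counts against 202 to 275, and fell by 1.93 on the log2 scale (SE 0.29, adjusted p = 0.000108), the largest change of the 9 with this compound.

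The inhibitors differed from each other at their doses of 5 µM for GSK715 and 10 µM for GSK025, which were not matched. With GSK715 over GSK025, PHGDH, PSAT1, SHMT2, MTHFD2 and MTHFD1L were higher and PSPH, SHMT1 and MTHFD1 lower, while ALDH1L2 did not pass. These are 5 of 9 higher, where 21.8% of genes tested were, and 3 of 9 lower, where 22.5% were (44.3% in either direction). The largest difference was that of PSAT1, with 174 to 194 CPM with GSK715 against 86.5 to 91.8 with GSK025 (log2 fold change 1.05, SE 0.051, adjusted p = 5.14e-09). SHMT1 differed most in the other direction, with 24.4 to 30.2 CPM with GSK715 against 47.7 to 49.1 with GSK025 (-0.82, SE 0.079, adjusted p = 2.71e-06).

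Of the other members, MTHFD2 differed by a log2 fold change of 0.56 (SE 0.037, adjusted p = 9.99e-08), PHGDH by 0.54 (SE 0.045, adjusted p = 7.06e-07), MTHFD1L by 0.43 (SE 0.066, adjusted p = 0.000150) and MTHFD1 by -0.55 (SE 0.050, adjusted p = 1.45e-06). PSPH differed by -0.29 (SE 0.075, adjusted p = 0.00659). The smallest called difference was that of SHMT2, 0.20 (SE 0.047, adjusted p = 0.00358), which was lost with library totals in place of TMM (adjusted p = 0.0714). ALDH1L2 had a log2 fold change of 0.49 (SE 0.29, adjusted p = 0.192) between overlapping groups, and it passed when GSK025 replicate 1, its highest library in that group, was left out (0.82, adjusted p = 0.0396). Thus the mitochondrial enzymes other than ALDH1L2, and the first enzymes of serine synthesis, were higher with GSK715. The cytosolic enzymes and PSPH were higher with GSK025.

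**Figure D2:**
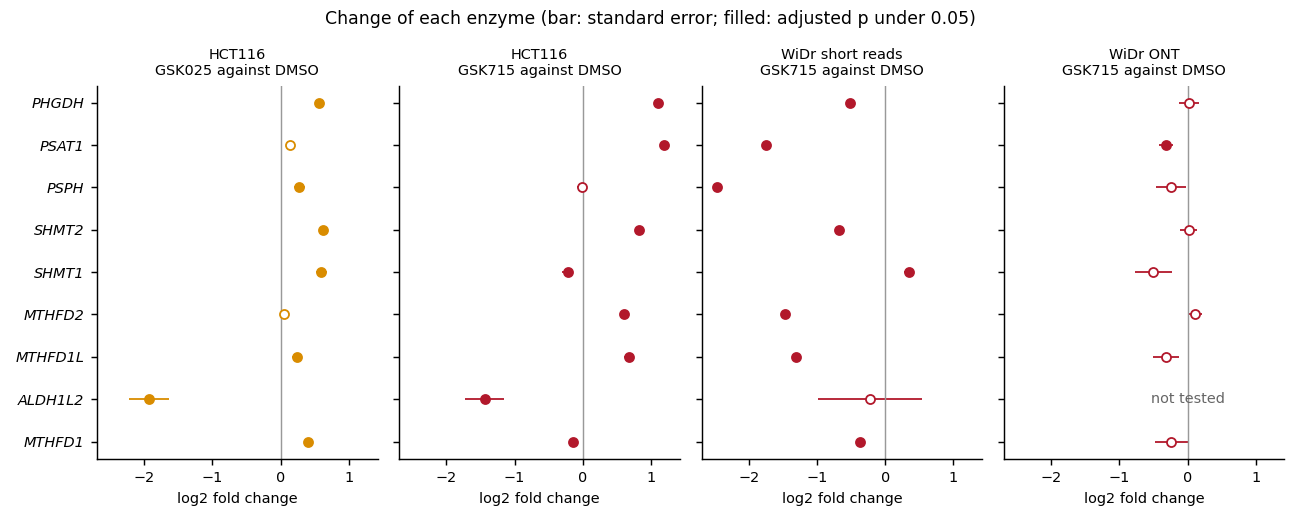
Log2 fold change of each enzyme (point) with its SE (bar; filled where called) in the comparisons of GSK025 and GSK715 with DMSO in HCT116, of GSK715 with DMSO in the WiDr short reads and in the WiDr ONT libraries. PSAT1 lies at 0.13 and 1.18 in HCT116, at -1.75 in the WiDr short reads and at -0.32 in ONT.

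In the WiDr short reads most of the route fell with GSK715. PSPH, PSAT1, MTHFD2, MTHFD1L, SHMT2, PHGDH and MTHFD1 fell, by 1.29-fold to 5.53-fold, SHMT1 rose, and ALDH1L2 did not pass. These are 7 of 9 called lower, where 32.2% of the 19340 genes tested were, and 1 of 9 higher, where 33.6% were (65.8% in either direction). The median log2 fold change was -0.68 over the 9 and 0.05 over all genes tested.

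PSPH, which did not move with GSK715 in HCT116, changed most here: it had 28.7, 29.9 and 30.5 CPM with GSK715 against 165, 165 and 163 with DMSO. It fell by 2.47 on the log2 scale (SE 0.035, adjusted p = 1.49e-11). PSAT1 had 228, 220.1 and 226 CPM with GSK715 against 753, 746 and 772 with DMSO, and fell by 1.75 on the log2 scale (SE 0.027, adjusted p = 2.69e-11). PHGDH, the first enzyme of the chain, had 99.8, 107 and 98.5 CPM with GSK715 against 145, 147 and 147 with DMSO, a smaller fall of 0.52 on the log2 scale (SE 0.037, adjusted p = 7.35e-07). In each of these 3 genes every treated library lay below every control library.

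MTHFD2 had 325, 329 and 319.5 CPM with GSK715 against 894, 887 and 912 with DMSO, and fell by 1.47 on the log2 scale (SE 0.024, adjusted p = 3.86e-11). MTHFD1L had 54.1, 54.1 and 54.9 CPM with GSK715 against 137, 137 and 131 with DMSO, and fell by 1.31 on the log2 scale (SE 0.032, adjusted p = 3.94e-10). SHMT2 had 285, 288 and 288 CPM with GSK715 against 463, 471 and 442 with DMSO, and fell by 0.68 on the log2 scale (SE 0.030, adjusted p = 2.05e-08). The mitochondrial enzymes therefore had no overlap between groups, ALDH1L2 excepted. ALDH1L2 was hardly detected, with 10, 11 and 19 counts per library under GSK715 against 19, 22 and 4 under DMSO, and its log2 fold change of -0.23 (SE 0.76, adjusted p = 0.805) is too imprecise to place.

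The cytosolic pair split. MTHFD1 had 49.4, 55.7 and 52.1 CPM with GSK715 against 68.5, 67.8 and 67.1 with DMSO, and fell by 0.37 on the log2 scale (SE 0.046, adjusted p = 4.96e-05). SHMT1 had 27.2, 28.2 and 30.8 CPM with GSK715 against 22.6, 22.5 and 22.9 with DMSO, and rose by a log2 fold change of 0.34 (SE 0.065, adjusted p = 0.000977). Neither gene's groups overlapped.

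The response to GSK715 was then compared between the lines through the interaction term, as the WiDr change minus the HCT116 change. For this the libraries of both lines were filtered, TMM-scaled and fitted together. The term can thus differ somewhat from the difference of the changes printed above. Its SE can lie below that of 1 line alone, as for PSPH (0.056 against 0.075 in HCT116). The response was lower in WiDr for 7 of 9 enzymes, where 23.5% of the 21791 genes tested had a lower response, and higher for 1, where 23.2% had a higher one (46.7% in either direction). The median over the 9 was -1.70, against 0.12 over all genes tested. The largest differences were those of PSAT1 (-3.00, SE 0.056, adjusted p = 2.74e-13), PSPH (-2.52, SE 0.056, adjusted p = 1.21e-12), MTHFD2 (-2.15, SE 0.035, adjusted p = 7.76e-14) and MTHFD1L (-2.05, SE 0.061, adjusted p = 2.00e-11). PHGDH (-1.70, SE 0.060, adjusted p = 1.04e-10) and SHMT2 (-1.57, SE 0.054, adjusted p = 7.77e-11) followed.

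For PHGDH, PSAT1, SHMT2, MTHFD2 and MTHFD1L the called changes had opposite signs in the lines, and for PSPH the change was called in WiDr alone. SHMT1 went the other way, with an interaction of 0.50 (SE 0.12, adjusted p = 0.00300). The interaction of MTHFD1, -0.30 (SE 0.069, adjusted p = 0.00297), took the opposite sign when library totals replaced TMM (0.06, adjusted p = 0.537), and that of ALDH1L2 did not pass (1.15, SE 0.73, adjusted p = 0.224). With library totals 6 of the 9 were lower and 1 higher. With DMSO alone PSAT1 also differed in level, with 746 to 772 CPM for PSAT1 in WiDr DMSO libraries and 80.0 to 84.6 in HCT116 DMSO libraries, from tables normalized separately.

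**Figure D3:**
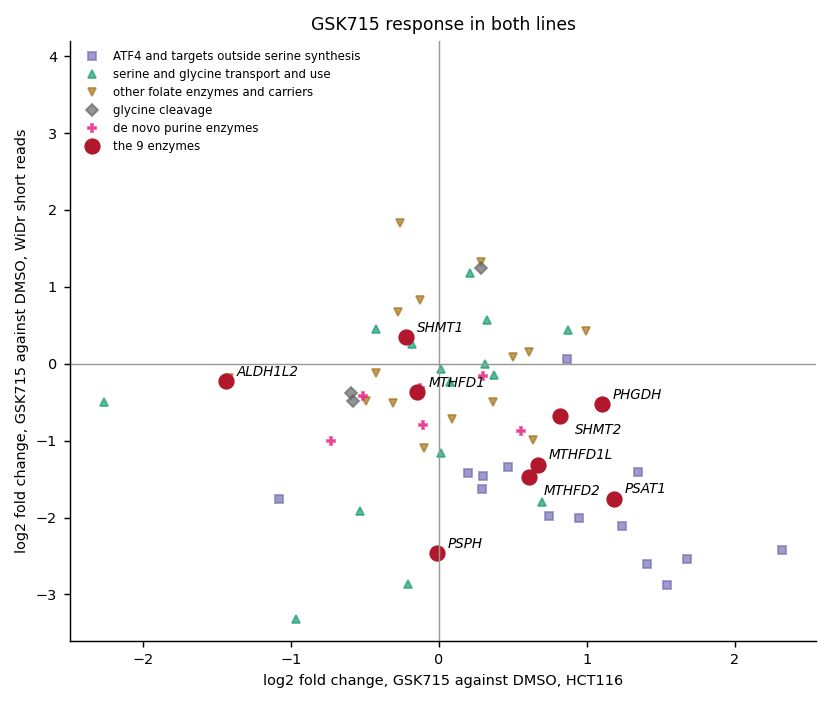
Log2 fold change with GSK715 in HCT116 (horizontal) and in the WiDr short reads (vertical) for the 9 enzymes (labelled) and the genes of 5 neighbouring lists. PHGDH, PSAT1, SHMT2, MTHFD2 and MTHFD1L lie to the right and below 0, and PSPH near 0 in HCT116 (-0.02) and at -2.47 in WiDr.

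The full-length cDNA libraries of WiDr did not show the same size of change. Of the 8 enzymes tested there, PSAT1 was the 1 called lower, where 4.51% of the 15877 genes tested were. edgeR called 0 higher at an adjusted p under 0.05, where it called 4.29% of genes higher (8.80% in either direction). No enzyme with a positive change had an unadjusted p under 0.05 either. DESeq2, which called 150 of the 15877 genes higher and 124 lower, called 0 of the enzymes in either direction. PSAT1 had 232 and 246 CPM with GSK715 against 317 and 279 with DMSO, from 345 and 361 against 515 and 407 counts. It fell by 0.32 on the log2 scale (SE 0.10, adjusted p = 0.0344), a call that was lost without a count filter (0.274), with DESeq2 (0.488), and without GSK715 replicate 1 (0.121), DMSO replicate 1 (0.477) or DMSO replicate 2 (0.106).

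The other enzymes of serine synthesis overlapped between the ONT groups. PSPH had 33.0 and 25.2 CPM with GSK715 against 36.3 and 32.2 with DMSO (log2 fold change -0.24, SE 0.22, adjusted p = 0.595), from 37 to 59 counts per library. PHGDH had 80.1 and 70.1 CPM against 78.8 and 68.6 (0.02, SE 0.15, adjusted p = 0.956). MTHFD2, with 222 and 186 CPM against 193 and 185, had a log2 fold change of 0.11 (SE 0.11, adjusted p = 0.620). SHMT2 had 113 and 127 CPM against 117 and 120.0 (0.02, SE 0.12, adjusted p = 0.961), and the signs of PHGDH and SHMT2 turned with library totals (-0.03 and -0.04). MTHFD1L had 39.1 and 40.2 against 49.8 and 48.7, without overlap but not called (-0.32, SE 0.18, adjusted p = 0.338). SHMT1 (14.1 and 19.7 CPM against 26.5 and 21.3) and MTHFD1 (22.2 and 24.5 against 25.2 and 30.2) were below DMSO in each treated library but not called either, with adjusted p = 0.294 and 0.637. ALDH1L2 had 3 and 1 counts with GSK715 against 2 and 0 with DMSO and was not tested.

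These differences from the short reads were tested as ONT minus short reads. Both read types were fitted together, with 1 estimate of the spread per gene. An SE here can therefore lie below that of ONT alone, as for PSPH (0.16 against 0.22), and may understate the spread of ONT. The response was higher in ONT for 6 of 9 enzymes, where 11.2% of the 24055 genes tested had a higher response, and lower for 1, where 8.69% had a lower one (19.9% in either direction). It differed by 2.28 for PSPH (SE 0.16, adjusted p = 1.33e-06), 1.63 for MTHFD2 (SE 0.094, adjusted p = 3.08e-07), 1.48 for PSAT1 (SE 0.078, adjusted p = 1.67e-07) and 1.05 for MTHFD1L (SE 0.11, adjusted p = 2.56e-05). SHMT2 (0.74, SE 0.086, adjusted p = 5.53e-05) and PHGDH (0.60, SE 0.13, adjusted p = 0.00415) differed less, and SHMT1 by -0.79 (SE 0.22, adjusted p = 0.0215). The last call was lost without ONT DMSO replicate 1 (adjusted p = 0.238) or ONT GSK715 replicate 1 (0.216), which left 0 enzymes lower, and MTHFD1 and ALDH1L2 did not pass.

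Set side by side, the treated WiDr libraries of both read types had close PSAT1 levels and the control libraries did not: 232 and 246 CPM in ONT and 220.1 to 228 in short reads with GSK715, against 279 and 317 in ONT and 746 to 772 in short reads with DMSO. PSPH showed the like, with 25.2 and 33.0 CPM in ONT and 28.7 to 30.5 in short reads with GSK715, against 32.2 and 36.3 in ONT and 163 to 165 in short reads with DMSO. MTHFD2 was lower in ONT in both groups, with 186 and 222 CPM in ONT and 319.5 to 329 in short reads with GSK715, against 185 and 193 in ONT and 887 to 912 in short reads with DMSO. The tables were normalized separately and the read types count molecules differently, and whether the ONT libraries came from the same cultures is not stated, so the part of each in this difference was not tested.

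Ratios of mitochondrial to cytosolic enzymes, taken within a library and per kilobase of exons, describe the balance of the arms. SHMT2 over SHMT1 was 10.9, 11.5 and 10.3 with GSK025, 22.5, 20.1 and 23.8 with GSK715, and 10.1, 10.8 and 11.2 with DMSO in HCT116. In the WiDr short reads it was 15.8, 15.4 and 14.1 with GSK715 against 30.8, 31.5 and 29.1 with DMSO, and in ONT 12.0 and 9.65 with GSK715 against 6.65 and 8.50 with DMSO. GSK715 libraries thus lay above DMSO libraries in HCT116 and in ONT and below them in the WiDr short reads, and those of GSK025 overlapped DMSO. Per kilobase of the longest transcript this ratio was lower throughout, 10.7 to 12.8 with GSK715 against 5.41 to 6.02 with DMSO in HCT116 and 7.55 to 8.46 with GSK715 against 15.6 to 16.9 with DMSO in the WiDr short reads.

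MTHFD2 over MTHFD1 was 3.15, 3.16 and 3.65 with GSK025, 7.20, 6.89 and 7.31 with GSK715, and 3.96, 4.33 and 4.45 with DMSO in HCT116, and 12.6, 11.4 and 11.8 with GSK715 against 25.1, 25.2 and 26.2 with DMSO in the WiDr short reads. In ONT it was 19.2 and 14.6 with GSK715 against 14.8 and 11.8 with DMSO, where the groups overlapped. MTHFD1L over MTHFD1 was 1.01, 1.01 and 0.926 with GSK025, 2.09, 1.83 and 1.92 with GSK715, and 1.06, 1.10 and 1.17 with DMSO in HCT116, and 2.04, 1.82 and 1.97 with GSK715 against 3.74, 3.78 and 3.65 with DMSO in the WiDr short reads. In ONT it was 3.28 and 3.06 with GSK715 against 3.69 and 3.01 with DMSO, again with overlap. Both ratios with GSK025 were below those with DMSO in every library, and both with GSK715 above in HCT116 and below in the WiDr short reads. With 3 libraries a group or fewer an exact permutation test cannot pass 0.05, so these ratios are descriptions.

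**Figure D4:**
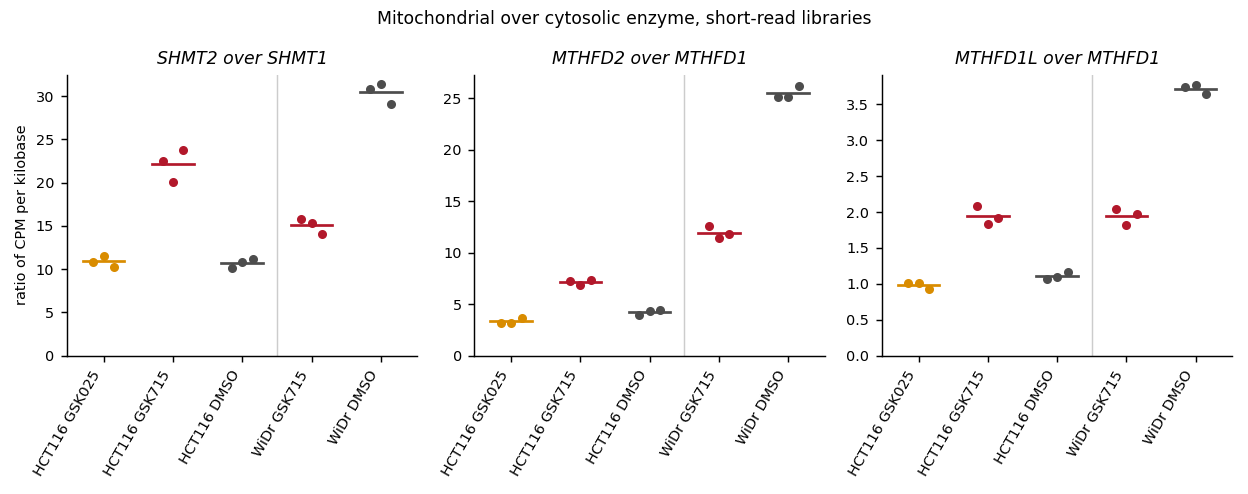
Ratio of CPM per kilobase of SHMT2 over SHMT1, MTHFD2 over MTHFD1 and MTHFD1L over MTHFD1 in each short-read library (points) with the group mean (line), axes from 0. With GSK715 the ratio of SHMT2 to SHMT1 was 20.1 to 23.8 against 10.1 to 11.2 with DMSO in HCT116, and 14.1 to 15.8 against 29.1 to 31.5 with DMSO in WiDr.

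The neighbouring genes of the route were described by lists, which were chosen with results of these data known, and WiDr here means the short reads unless ONT is named. Over all genes tested, 22.0% were called higher and 22.1% lower with GSK025, 22.1% higher and 24.2% lower with GSK715 in HCT116, and 33.6% higher and 32.2% lower with GSK715 in WiDr. De novo purine enzymes, of the pathway that takes in the formyl units at some of its steps, had 6 members. With GSK025 3 rose and 2 fell (median log2 fold change 0.10), with GSK715 2 rose and 4 fell in HCT116 (-0.12), and with GSK715 all 6 fell in WiDr (-0.61). PPAT, which opens the pathway, fell with GSK715 by 0.73 in HCT116 and by 1.01 in WiDr on the log2 scale (adjusted p = 2.91e-07 and 2.74e-08). GART, one of whose activities uses formyl-tetrahydrofolate, rose by 0.56 in HCT116 and fell by 0.87 in WiDr (adjusted p = 3.28e-07 and 1.46e-08). As ONT minus short reads, the WiDr responses of PPAT and GART differed by 1.16 and 0.985 (adjusted p = 0.00168 and 0.000118).

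Among 16 other folate enzymes and carriers, 5 rose and 6 fell with GSK025, and 6 rose and 4 fell with GSK715 in HCT116. In WiDr 6 rose and 6 fell of 15 tested. FPGS, which adds the glutamate tail that keeps folate in the cell, fell by 0.72 on the log2 scale with GSK025 and rose by 0.99 with GSK715 in HCT116 (adjusted p = 7.36e-06 and 2.96e-07). MTR, the folate-dependent methionine synthase, fell with GSK715 by 1.42 in HCT116 (adjusted p = 2.17e-08). In WiDr the folate receptor FOLR1 rose by 1.83 (adjusted p = 1.13e-07), and MTRR, which reactivates MTR, fell by 0.99 (adjusted p = 3.95e-09). As ONT minus short reads, the responses of FOLR1 and MTRR differed by -1.14 and 1.49 (adjusted p = 0.0015 and 9.01e-05). The list thus had no common direction.

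Of 16 genes for transport and use of serine and glycine, 2 rose and 4 fell with GSK025, 6 rose and 4 fell with GSK715 in HCT116, and 4 rose and 7 fell of 15 tested in WiDr. The amino acid transporter SLC38A2 fell by 0.71 with GSK025 and by 0.54 with GSK715 in HCT116, and by 1.92 in WiDr (adjusted p = 1.48e-08, 8.78e-08 and 2.73e-11). SFXN3, a homologue of the mitochondrial serine carrier SFXN1, rose by 1.18 in WiDr (adjusted p = 2.61e-08). As ONT minus short reads, the responses of SLC38A2 and SFXN3 differed by 1.54 and -1.58 (adjusted p = 2.16e-06 and 9.83e-06). Of the glycine cleavage system, 1 of 4 genes fell with GSK025, 2 of 4 with GSK715 in HCT116 and 2 of 3 tested in WiDr, and the others did not pass. GCSH, its carrier protein, was among those lower in WiDr, where it fell by 0.38 on the log2 scale (adjusted p = 0.000802), but rose in ONT by 0.78 (SE 0.25, adjusted p = 0.0422), where 4.29% of genes were higher, and its responses differed between the read types (1.22, adjusted p = 0.00108). The ONT call of GCSH was lost with library totals (adjusted p = 0.0609), without a count filter (0.269), with DESeq2 (0.666), and without DMSO replicate 1 (0.186), DMSO replicate 2 (0.234) or GSK715 replicate 1 (0.255).

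ATF4 and its known targets outside serine synthesis, 15 genes, had 6 higher and 6 lower with GSK025 (median log2 fold change -0.08), 13 higher and 1 lower with GSK715 in HCT116 (0.95), and 13 lower of 14 tested with GSK715 in WiDr (-1.87), where the other, ATF4 itself, was not called. Of the 13 list genes with a group mean of at least 1 CPM in both lines, a limit set after their values were seen, 13 had a lower response in WiDr, where 23.5% of all genes tested did. STC2 (at most 0.0838 CPM in the WiDr short reads) and VLDLR (at most 0.579 CPM with GSK715 or DMSO in HCT116) are left out of that count, since each was hardly detected in 1 line. The share of 23.5% has no such limit, and the share among all genes above the limit was not counted. ASNS, the asparagine synthetase, rose by 1.40 in HCT116 and fell by 2.61 in WiDr (adjusted p = 3.24e-11 and 3.56e-12), and SLC3A2, a subunit of amino acid exchangers, fell by 1.98 in WiDr (adjusted p = 4.68e-12). The transcript of ATF4 itself rose in HCT116 by 0.87 (SE 0.042, adjusted p = 5.97e-09) while its change in WiDr was 0.06 (SE 0.028, adjusted p = 0.108). In ONT 6 of the 12 tested fell (median -0.46), where 4.51% of all genes tested did, and the others did not pass. The ONT response was not of the same size as in the short reads. As ONT minus short reads, it was higher for 12 of 14 list genes tested and lower for 0 (median 1.41). Of all genes tested, 11.2% were higher in that comparison. ASNS differed by 2.265 (SE 0.107, adjusted p = 9.51e-08). ASNS shares 44.6% of its exonic bases with 1 or more other genes and is uncertain in that respect.

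The genes whose changes lay nearest to a member's were found among 9794 genes by the distance between log2 fold changes over 3 comparisons: GSK025 and GSK715 in HCT116, which share controls, and GSK715 in WiDr. PHGDH had EOLA2 (distance 0.136), SDC4 and TMEM40 (0.140 each), and SHMT2 had INKA2 (0.0880), MED30 (0.116) and WDR74 (0.121). PSAT1 had PLK3 (0.224), DUSP5 (0.232) and MGLL (0.245), and MTHFD2 had SIAH2 (0.0922), SLC31A1 (0.121) and AKNA (0.143). No member was among the 3 nearest genes of these 4.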

How the data were processed

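RNA of 19 libraries was measured. Per the labels' protocols, short reads came in pairs from poly(A)-enriched RNA. The submitters' processing notes name cutadapt, HISAT2, StringTie, DESeq2, minimap2, Salmon and the build GRCh38, with no versions or roles, and the annotation release is not given in the sources used here. For short reads, the authors deposited raw counts of each gene. For ONT, the values deposited are estimated counts, and these were rounded to whole numbers. In both WiDr tables columns named NC were taken as DMSO, the only control the labels give.

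Ensembl IDs were matched to symbols with GENCODE 29 and a gene name table (60588 of 60612 IDs for HCT116, 62541 of 63086 for WiDr, 61512 of 82890 for ONT). Each comparison was fitted over all genes of a table with edgeR 4.0.16 in R 4.3.3: filterByExpr (minimum count 10, minimum total 15), TMM scaling, then glmQLFTest, adjusted by Benjamini and Hochberg's method. Interactions used the IDs shared by their tables, filtered, scaled and fitted over the libraries of both. The fit was tested on simulated data. Replicates differed by more than counting noise in every pair (chi-square of their counts). The lower depth of ONT limits the precision of weak genes.

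The members and lists were chosen with earlier results of these data known. All members are named, and of each list up to 2 called genes per direction, those of smallest adjusted p; ATF4 was named after its values were seen. Alternatives were RLE size factors, library totals, no count filter, DESeq2 1.42.0, glmTreat at 1.5-fold, a block for the replicate number, leaving out single replicates, fits without mitochondrially encoded genes or of the compared groups alone, unrounded estimated counts, and length by longest transcript.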

Additional observations from a re-analysis of the deposited data

Results flagged for a closer look

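The responses to GSK715 that differed between the lines, as the WiDr log2 fold change minus that of HCT116 by the interaction term of edgeR, were those of PSAT1 (-3.00), PSPH (-2.52), MTHFD2 (-2.15), MTHFD1L (-2.05), PHGDH (-1.70), SHMT2 (-1.57), MTHFD1 (-0.30) and SHMT1 (0.50). Those of PHGDH, PSAT1, SHMT2, MTHFD2 and MTHFD1L had called changes of opposite sign in the lines.

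The responses of WiDr that differed between read types, as ONT minus short reads, were those of PSPH (2.28), MTHFD2 (1.63), PSAT1 (1.48), MTHFD1L (1.05), SHMT2 (0.74), PHGDH (0.60) and SHMT1 (-0.79).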

How the results depend on the processing

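The enzymes called with GSK715 in the WiDr short reads (7 lower, 1 higher), between the lines (7 and 1) and with GSK025 in HCT116 (1 lower, 6 higher) had the same counts under the replicate block, without mitochondrially encoded genes and without each replicate in turn, and every comparison had the same counts under the block. Equal counts can hide a swap: without GSK025 replicate 1, MTHFD1L was lost with GSK025 (edgeR adjusted p = 0.0593) and PSAT1 was gained (0.0431). Deviations of same-numbered libraries from their group means were at most weakly correlated (-0.112 to 0.053 in HCT116, 0.053 to 0.108 in WiDr). In ONT, with 2 libraries a group, both pairs give the same value by construction, 0.03. Such correlations cannot tell whether equal numbers pair the samples. In WiDr every library correlated best with its own number, 6 of 6, against 4 of 18 comparisons in HCT116. These comparisons are not independent, since each pair of libraries counts from both sides. The result in WiDr is at most a hint from the data and not the design. With the block 12351 genes were called in WiDr and 1706 in ONT, against 12727 and 1397, and SHMT1 between read types was still called, just under the threshold.

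The number of enzymes lower with GSK715 in HCT116, 3, was 1 with RLE size factors, no count filter, glmTreat or only the groups compared, and 1 to 3 without a replicate. PSPH there reversed with RLE size factors and DESeq2 (0.005 each), only the groups compared (0.006) and without DMSO replicate 1 (-0.031 to 0.015 without a replicate). Against a 1.5-fold change (glmTreat) the enzymes called were 0 higher and 1 lower with GSK025, 3 higher and 1 lower with GSK715 in HCT116, 1 higher and 1 lower for GSK715 over GSK025, 0 higher and 5 lower in WiDr, 0 either way in ONT, 0 higher and 6 lower between lines, and 4 higher and 0 lower between read types. The genes called were then 1782, 2375, 2011, 6417, 238, 5205 and 1778 in these 7 comparisons, since the test asks for a larger change.

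In ONT the enzymes lower, 1, were 0 with no count filter or DESeq2 and 0 to 1 without a replicate, and the genes called, 1397, were 251 with no filter, 274 with DESeq2 and 464 to 1058 without a replicate. There PHGDH reversed with library totals (-0.031) and without a replicate (-0.077 to 0.128), SHMT2 likewise (-0.038, and -0.061 to 0.095), and MTHFD2 without GSK715 replicate 1 (-0.026 to 0.238 without a replicate). The enzymes lower between read types were 0 to 1 without a replicate. MTHFD2 with GSK025 (-0.017) and MTHFD1 between lines (0.058) and between read types (-0.033) reversed with library totals, and ALDH1L2 in WiDr without DMSO replicate 1 or 2 (-0.727 to 0.163 without a replicate). Per kilobase of the longest transcript the top members of HCT116 had 102.1 (SHMT2, GSK025), 101.9 (MTHFD2, GSK715, then below SHMT2 at 117) and 66.9 (MTHFD2, DMSO). Beyond these constructions the cause was not tested.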
